A study of Mus musculus with 6 samples.

Results

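The genes described here are 39 imprinted genes of the mouse, at 17 loci, out of 49315 genes counted in mouse embryo fibroblasts. They were found by matching the Ensembl identifiers of the counts to the gene symbols of GENCODE M21, and all 39 symbols had a row. Poly(A) RNA had been sequenced from 6 fibroblast lines of the C57BL/6 strain at passage 4, untreated and grown in DMEM with 10% serum. Lines SG1, SG2 and SG3 were p53-/-;MDMXSG/SG, with both copies of Mdm4, the gene of the p53 partner MDMX, carrying knock-in substitutions W201S and W202G. Lines WT3, WT9 and WT11 were p53-/-;MDMXWT/WT. Both genotypes therefore lacked p53, and each line came from a single embryo, so that n = 3 lines of separate embryos stand in each genotype. The comparison asks which genes depend on the MDMX-SG allele where p53 is absent. The sources used here give no litter, date of culture or run of sequencing.

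An imprinted gene is transcribed mainly from the allele inherited from 1 parent, according to DNA methylation that was laid down in the egg or the sperm and is kept through cell division. Imprinted genes lie in clusters that share a control region, often with a long noncoding RNA expressed from the opposite parental allele to the protein-coding genes. Many of them set the growth of the embryo and placenta, and embryo fibroblasts are a usual place to study them. In these data all animals were of a single strain and the counts do not separate alleles, so a level is the sum over both alleles.

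Promoters are given for 5 genes on which the description turns: the pair past the statistical threshold (Asb4 and Slc38a4), a pair of the Dlk1-Dio3 locus expressed from opposite parental alleles (Dlk1 and Meg3), and Peg3. The sequences are RefSeq windows on GRCm38.p6, from 250 bases before to 50 bases after the annotated start, written 5′ to 3′ on the strand of the gene, with each CpG, the dinucleotide that imprinting methylation acts on, in capitals. They lie at chr6:5383136-5383435 (Asb4, plus strand), chr15:97055907-97056206 (Slc38a4, minus strand), chr12:109452573-109452872 (Dlk1, plus strand), chr12:109540746-109541045 (Meg3, plus strand) and chr7:6730370-6730669 (Peg3, minus strand).
Asb4: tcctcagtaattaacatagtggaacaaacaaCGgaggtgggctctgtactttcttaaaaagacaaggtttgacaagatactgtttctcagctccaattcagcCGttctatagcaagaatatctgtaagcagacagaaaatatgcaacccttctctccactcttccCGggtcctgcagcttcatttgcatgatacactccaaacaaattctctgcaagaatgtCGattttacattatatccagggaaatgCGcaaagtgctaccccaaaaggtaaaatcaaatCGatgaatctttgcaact
Slc38a4: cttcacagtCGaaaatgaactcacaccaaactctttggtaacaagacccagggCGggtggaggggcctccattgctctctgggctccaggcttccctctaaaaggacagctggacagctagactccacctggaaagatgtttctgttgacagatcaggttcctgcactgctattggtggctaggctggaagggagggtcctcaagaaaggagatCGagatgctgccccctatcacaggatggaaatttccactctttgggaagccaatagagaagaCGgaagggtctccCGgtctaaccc
Dlk1: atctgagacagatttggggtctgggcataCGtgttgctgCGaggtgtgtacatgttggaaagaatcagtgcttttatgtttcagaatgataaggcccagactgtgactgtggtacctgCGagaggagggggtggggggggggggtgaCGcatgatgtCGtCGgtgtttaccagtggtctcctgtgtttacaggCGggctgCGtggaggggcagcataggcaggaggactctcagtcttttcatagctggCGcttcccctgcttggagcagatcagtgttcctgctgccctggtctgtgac
Meg3: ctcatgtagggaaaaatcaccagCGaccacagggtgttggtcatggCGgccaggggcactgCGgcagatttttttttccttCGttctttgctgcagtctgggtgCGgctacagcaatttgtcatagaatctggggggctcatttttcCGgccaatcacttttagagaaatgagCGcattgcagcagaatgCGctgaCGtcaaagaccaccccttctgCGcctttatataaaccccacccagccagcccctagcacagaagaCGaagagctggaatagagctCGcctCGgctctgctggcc
Peg3: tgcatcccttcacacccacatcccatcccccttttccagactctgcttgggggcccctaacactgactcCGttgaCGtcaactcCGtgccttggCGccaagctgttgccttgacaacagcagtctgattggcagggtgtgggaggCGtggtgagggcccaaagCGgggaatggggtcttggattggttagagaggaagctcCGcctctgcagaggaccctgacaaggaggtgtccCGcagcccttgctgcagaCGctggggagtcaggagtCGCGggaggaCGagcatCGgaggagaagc
The Asb4 window holds 6 CpG, the Slc38a4 window 5, the Dlk1 window 9, and the Meg3 and Peg3 windows 13 each, against a median of 7 over all 32851 windows of the table. Both strands were searched for TATAAA, the TATA box letters, which stand in the Meg3 window and in 13.6% of all windows, and for GGGCGG, a GC box, which stands in the Slc38a4 window and in 35.7% of all windows. The windows of Peg3 and of Usp29, its neighbour on the other strand, share 263 bases (chr7:6730370-6730632), so the pair starts from a single stretch of DNA. Of the 39 genes, 31 had a window. Asb4 and Meg3 have 2 annotated windows each and Slc38a4 has 3. The window described is the one whose start lies nearest the 5′ end of the gene.

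MicroRNAs lie within several members, some inside the noncoding RNA itself and some on the strand opposite to a protein-coding gene. Their mature forms were not measured here, since poly(A) libraries count long transcripts. The RefSeq mature sequences of 6 of them are shown with the seed, bases 2 to 8, in capitals, because the genes they lie within are described further on. The pair miR-675 lies within H19 (chr7:142577078-142577133, minus strand), miR-127-3p and miR-136-5p lie within the span of the protein-coding gene Rtl1 but on the opposite strand, so Rtl1 is not their host (chr12:109592888-109592909 and chr12:109595331-109595352), and miR-134-5p and miR-410-3p lie within Mirg (chr12:109734145-109734166 and chr12:109743764-109743784).
miR-675-5p: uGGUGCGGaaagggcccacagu
miR-675-3p: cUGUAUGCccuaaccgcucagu
miR-127-3p: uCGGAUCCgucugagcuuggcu
miR-136-5p: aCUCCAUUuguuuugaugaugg
miR-134-5p: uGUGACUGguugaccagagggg
miR-410-3p: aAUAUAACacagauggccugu
No 2 of these 6 share a seed. The span of Mirg holds 14 hairpins with 26 mature forms, and that of Rtl1 holds 7 hairpins with 13 mature forms, 11 of them on the strand opposite to Rtl1.

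Each line gave between 49317925 and 65457242 counts on genes, with 23053 to 23781 genes counted at least once. Xist, the RNA of the inactive X chromosome, stood at 399 and 343 CPM in SG1 and WT9 and at 0.565 to 0.700 CPM in the other 4 lines, and Ddx3y, on the Y chromosome, was low in the same pair of lines (0.163 and 0.122 CPM, against 92.2 to 99.0 CPM), so each genotype held 1 line of that kind and results are also given without both. CPM here are counts scaled to the library total after TMM adjustment. Mdm4 averaged 60.0 ± 3.36 CPM in SG lines and 60.4 ± 2.32 CPM in WT lines, and Trp53 71.4 ± 0.550 CPM in SG lines and 70.6 ± 2.19 CPM in WT lines (SD, n = 3 each), but counts per gene check neither the substitutions nor the p53 deletion. The 10 fibroblast markers summed to between 23493 and 26193 CPM in SG lines and between 22591 and 23322 CPM in WT lines, with Fn1 past the threshold upward and Thy1 and Prrx1 downward. Of these 10 markers 7 had a negative log2 fold change and 5 had every SG line below every WT line, so the sum, which a few abundant genes carry, does not give the direction of most of the list. Over all tested genes 1.90% passed the threshold, 11.2% had every SG line below every WT line and 10.0% had every SG line above. Of markers of other cells, 10 neural and glial genes summed to 471 to 493 CPM in SG lines and 336 to 422 CPM in WT lines, of which Nes, also made by other dividing cells, averaged 417 CPM in SG lines and 293 CPM in WT lines. Of the 8 tested neural and glial genes, 3 had a positive and 5 a negative log2 fold change. Sox2 had the largest estimate of the 8, at -2.89 (SE 0.70, adjusted p = 0.0897), with WT9 (0.596 CPM) close to the SG lines. The 8 adipocyte genes summed to 36.5 to 50.6 CPM in SG lines and 55.1 to 71.5 CPM in WT lines. Most of that sum was Lpl, which averaged 30.4 CPM in SG lines and 49.2 CPM in WT lines. Of the 5 tested adipocyte genes, 2 had a positive and 3 a negative log2 fold change. None of the 8 neural and glial genes and 5 adipocyte genes that were tested passed. The sums of 14 skeletal muscle genes overlapped between SG and WT lines (71.5 to 94.9 CPM in SG lines, 62.5 to 118 CPM in WT lines, Pax7 at 0). Those of 7 epithelial genes (49.7 to 85.9 CPM in SG lines, 67.0 to 86.1 CPM in WT lines) and 7 endothelial genes (52.9 to 72.6 CPM in SG lines, 39.4 to 54.4 CPM in WT lines) overlapped too. So did those of 8 macrophage and blood genes (27.4 to 63.0 CPM in SG lines, 11.96 to 33.8 CPM in WT lines) and 7 trophoblast genes (0.533 to 0.582 CPM in SG lines, 0.316 to 0.700 CPM in WT lines, with Elf5, Cdx2 and Tpbpa at 0). Only 7 muscle, 5 epithelial, 5 endothelial, 8 macrophage and blood and 1 trophoblast gene were tested, and none passed. All 8 macrophage and blood genes had a positive log2 fold change (median 0.60), each with overlapping lines. Of the 5 tested epithelial genes, 4 were positive and 1 negative, with Krt14 at 2.33 (SE 0.63, adjusted p = 0.122). Krt5, not tested, had 162 and 107 counts in SG1 and SG2 and 0 in the other lines. The part of such cells in the results was not tested, and in bulk RNA fewer cells of a type and less RNA per cell cannot be told apart.

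Imprinted genes were among the abundant transcripts of these fibroblasts, chiefly through the growth factor gene Igf2 and the noncoding RNA H19. The 39 genes together took 0.866%, 0.939% and 1.13% of all counts in SG1, SG2 and SG3, against 0.744%, 0.775% and 0.737% in WT3, WT9 and WT11. Every SG line thus stood above every WT line. Igf2 and H19 alone took 0.472%, 0.553% and 0.726% of the counts in the SG lines and 0.374%, 0.414% and 0.408% in the WT lines. Per length, H19 averaged 3548 TPM in SG lines and 2306 TPM in WT lines, and Igf2 1937 TPM in SG lines and 1355 TPM in WT lines. Next in mean TPM, between 100 and 1000, came 6 genes: Grb10, Slc38a4, Cdkn1c, Gnas, Igf2r and Impact. A further 15 genes lay between 10 and 100 TPM and 11 between 1 and 10 TPM. The 5 genes under 1 TPM were Kcnq1ot1, Rtl1, Usp29, Magel2 and Calcr. Calcr, the calcitonin receptor, had at most 0.0917 CPM in any line and 0 in WT11, and it alone of the 39 did not reach the count needed for a test.

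**Figure D1:**
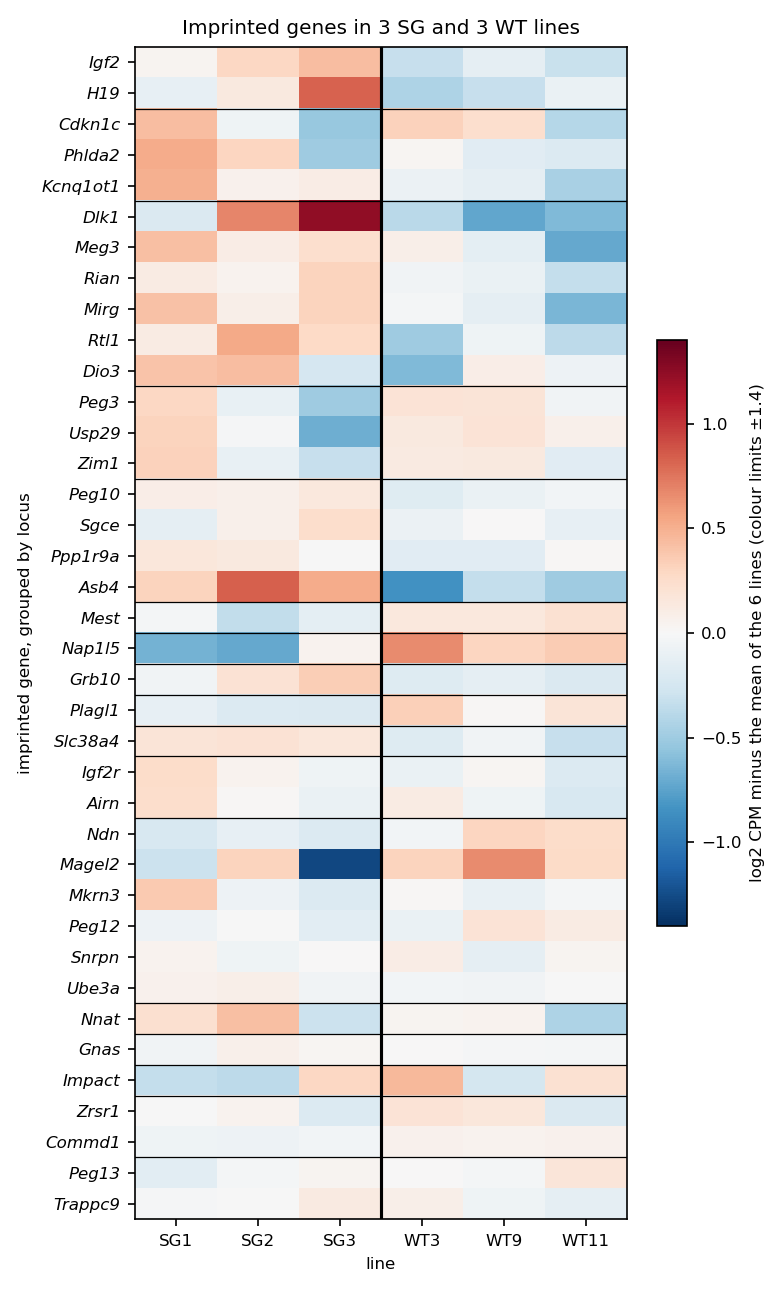
Level of each of the 38 tested imprinted genes (rows, grouped by locus) in each line (columns, SG lines left of the WT lines), as log2 CPM minus the gene's mean over the 6 lines, red above and blue below that mean. Dlk1 in SG2 and SG3 and Asb4 in all SG lines are above their mean, and Peg3, Usp29 and Zim1 share low values in SG3.

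Of the 38 tested genes, 2 rose in SG lines and 0 fell at an adjusted p under 0.05 (edgeR's quasi-likelihood test, Benjamini-Hochberg over 16068 genes). That is 5.26% of the 38 past the threshold upward, against 0.809% of all tested genes, and 0 downward against 1.10%. In either direction 1.90% of all tested genes passed. Both genes that rose, Asb4 and Slc38a4, are described next. By DESeq2, 8 of the 38 rose and 3 fell, and without a count filter 9 rose and 3 fell, so the number depends on the tool and the filter. At an unadjusted p under 0.05 stood 17 of the 38 (44.7%), against 15.5% of all tested genes. In 11 genes every SG line was above every WT line (28.9%, against 10.0% of all tested genes). In 5 every SG line was below every WT line (13.2% against 11.2%), and in 22 the genotypes overlapped. Thus 42.1% did not overlap, against 21.2% of all tested genes. The 11 include Dlk1, Meg3, Rian, Mirg and Rtl1 of the Dlk1-Dio3 locus, and genes of a cluster share their surroundings. The 39 genes were also chosen with earlier results of these data known. These shares, with the 44.7% above, therefore describe the list and are no test of it. The median log2 fold change (SG minus WT) was 0.10 over the 38 genes and 0.00 over all tested genes, and the median size without sign was 0.26 and 0.09.

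**Figure D2:**
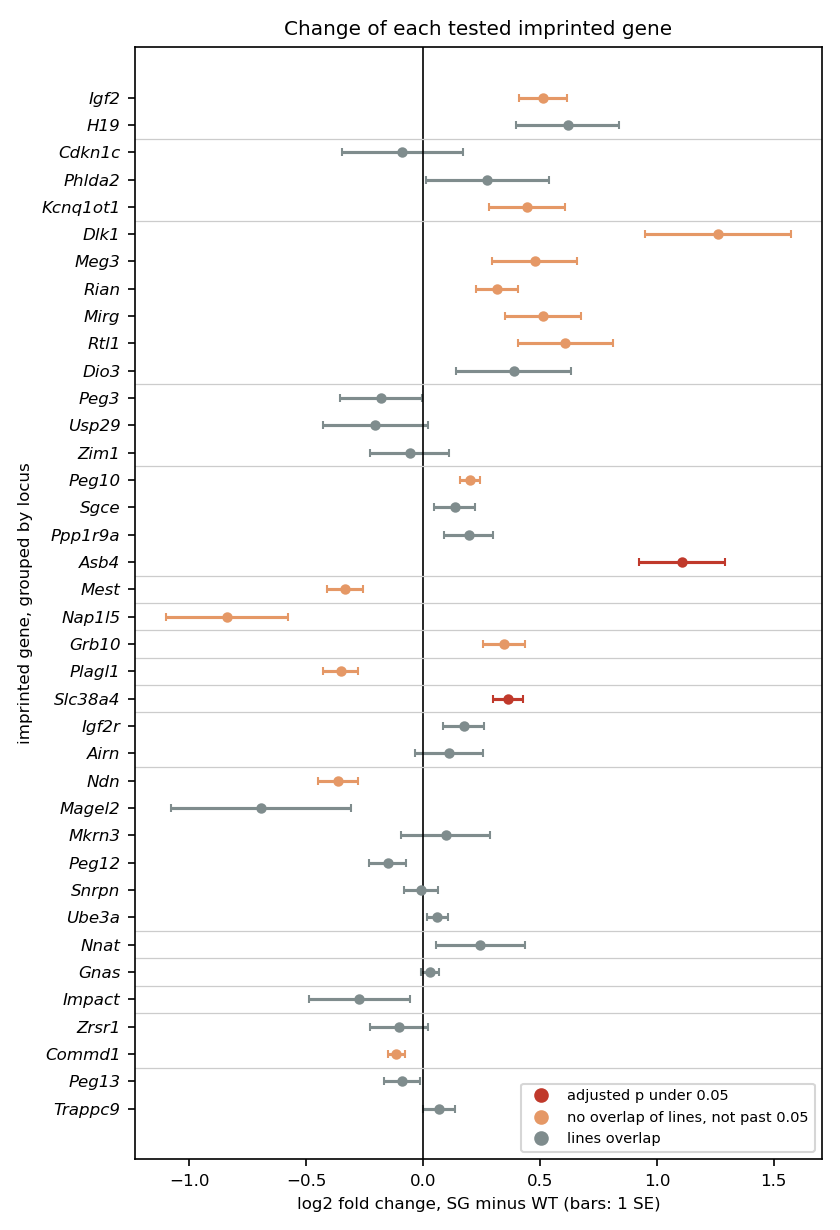
Log2 fold change, SG minus WT, of each tested imprinted gene with 1 standard error on either side, grouped by locus. Asb4 and Slc38a4 (dark red) are past the adjusted threshold, orange marks genes whose SG and WT lines did not overlap without passing it, and grey marks genes whose lines overlapped.

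Asb4, which encodes the substrate-binding subunit of a ubiquitin ligase and is expressed from the maternal allele, lies at chr6:5383386-5433022 in the Peg10 cluster. It had 3.97, 5.70 and 4.57 CPM in SG1, SG2 and SG3, against 1.78, 2.54 and 2.27 CPM in WT3, WT9 and WT11. The lowest SG line stood above the highest WT line. Asb4 rose 2.16-fold, to 4.75 ± 0.881 CPM in SG lines against 2.19 ± 0.383 CPM in WT lines (SD, n = 3 each; log2 fold change 1.11, SE 0.18, adjusted p = 0.0322). The call was lost when SG2 (adjusted p = 0.126), SG3 (0.0553), WT3 (0.114) or WT11 (0.120) was left out, and it held without both lines with Xist (0.0142).

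Slc38a4 encodes a sodium-coupled transporter of amino acids that is abundant in liver and placenta and, in the mouse, is expressed from the paternal allele. It lies at chr15:96994823-97055956, in a locus of its own among these 39. It had 258, 262 and 254 CPM in SG1, SG2 and SG3, against 200.04, 220.5 and 182 CPM in WT3, WT9 and WT11. The SG lines lay close together and all were above the WT lines. Slc38a4 rose 1.29-fold, to 258 ± 4.08 CPM in SG lines against 201 ± 19.3 CPM in WT lines (SD, n = 3 each; log2 fold change 0.36, SE 0.07, adjusted p = 0.0398). The call was lost when SG1 (adjusted p = 0.0524), SG2 (0.171), SG3 (0.0691), WT3 (0.157) or WT11 (0.0912) was left out, and it held without WT9 (0.0125) and without both lines with Xist.

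None of the other tested genes around this pair passed the threshold, which 1.90% of all tested genes did. At that share, windows of so few genes would often hold 0. Within 1 Mb on either side of Asb4, 0 of the 9 tested genes that are not among the 39 passed (median log2 fold change 0.06), among them the nearest on either side, Pon2 (-0.05), which encodes a paraoxonase, and Pdk4 (0.28), which encodes a kinase of pyruvate dehydrogenase. Around Slc38a4, 0 of 15 such genes passed (median log2 fold change 0.00). These include the related transporter genes Slc38a1 (log2 fold change 0.11, adjusted p = 0.413) and Slc38a2 (-0.02). The cartilage collagen gene Col2a1 in the same window had a larger estimate with a wide error (log2 fold change 2.01, SE 0.74, adjusted p = 0.242).

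**Figure D3:**
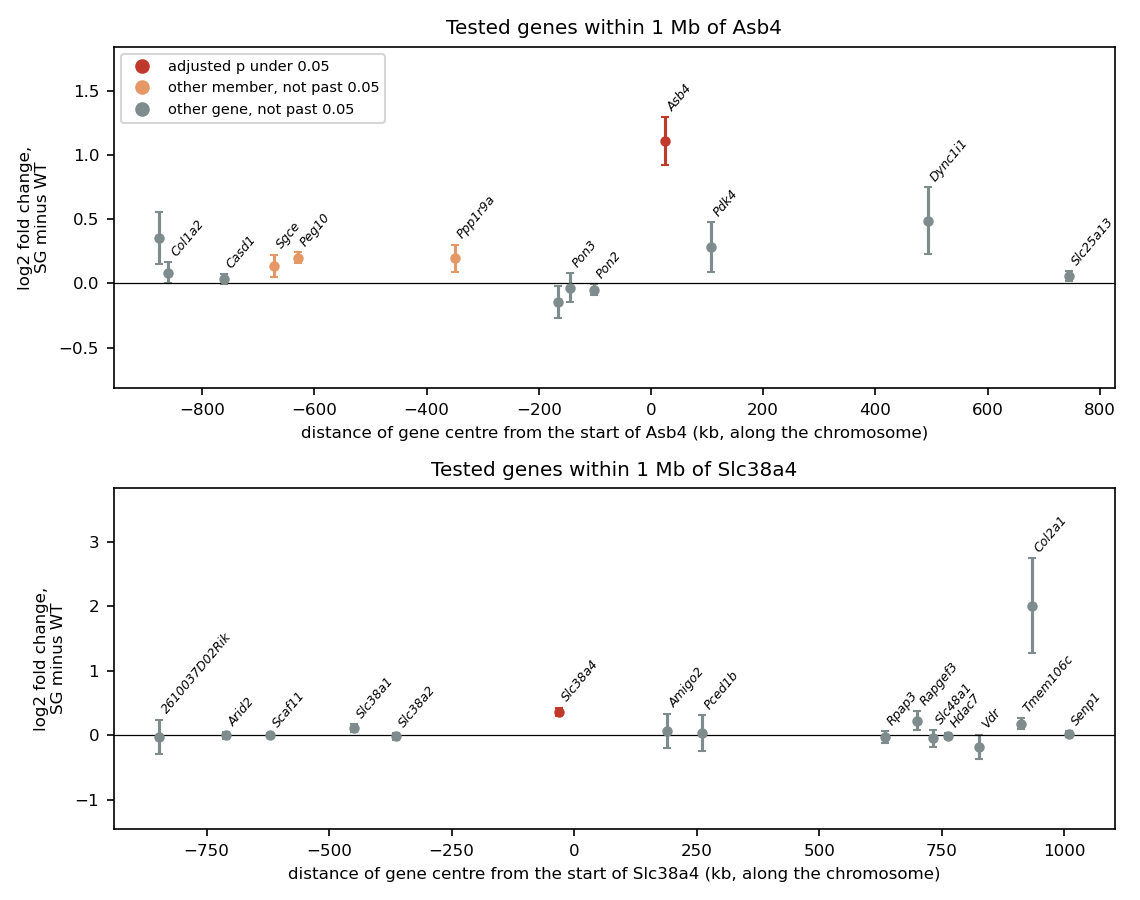
Log2 fold change, SG minus WT, with 1 standard error on either side, of every tested gene within 1 Mb of Asb4 (upper plot) and of Slc38a4 (lower plot), against the distance of the gene's centre from the start of Asb4 or Slc38a4 in kb. Asb4 and Slc38a4 are the genes past the adjusted threshold in their windows, 3 other imprinted genes near Asb4 are in orange, and predicted genes (Gm) are drawn without a name.

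None of the other genes of the Peg10 cluster passed the threshold. Peg10, a retrotransposon-derived gene needed for the placenta and expressed from the paternal allele, had 92.4, 90.9 and 96.1 CPM in SG1, SG2 and SG3, against 77.4, 81.2 and 84.5 CPM in WT3, WT9 and WT11. The lines did not overlap, and the difference, small beside that of Asb4, missed the threshold (log2 fold change 0.20, SE 0.04, adjusted p = 0.0689). Sgce, which encodes epsilon-sarcoglycan and is transcribed away from Peg10 on the paternal allele, had a log2 fold change of 0.13 (adjusted p = 0.531). Ppp1r9a, which encodes the actin-binding protein neurabin, had 0.20 (adjusted p = 0.438), and in both the lines of the genotypes overlapped.

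**Figure D4:**
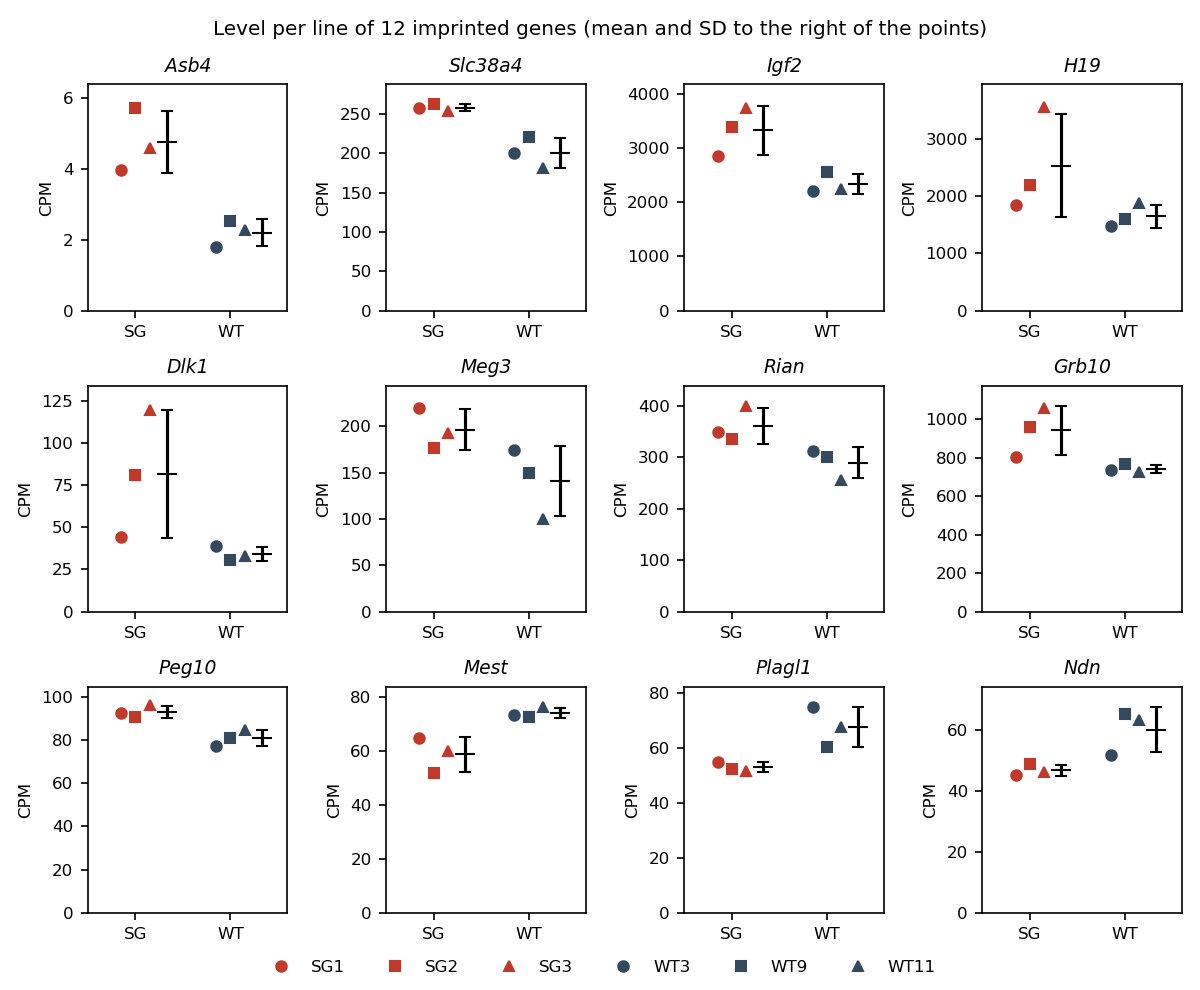
CPM of 12 imprinted genes in each line (circles, squares and triangles), SG in red to the left and WT in dark blue to the right, with the mean and SD of the 3 lines beside them. Dlk1, H19 and Igf2 are highest in SG3, whereas the SG lines lie close together in Slc38a4, Peg10, Plagl1 and Ndn.

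At the Igf2-H19 locus, Igf2, an embryonic growth factor made from the paternal allele, and H19, a noncoding RNA made from the maternal allele, are alternative users of shared enhancers. Igf2 had 2846, 3390 and 3747 CPM in SG1, SG2 and SG3, against 2211, 2552 and 2235 CPM in WT3, WT9 and WT11. All SG lines were above all WT lines, and the difference fell just short of the threshold (log2 fold change 0.51, SE 0.10, adjusted p = 0.0523). H19 had 1845, 2193 and 3546 CPM in SG1, SG2 and SG3, against 1481, 1590 and 1870 CPM in WT3, WT9 and WT11. Here SG1 was below WT11 and SG3 stood far above the rest (log2 fold change 0.62, SE 0.22, adjusted p = 0.233), and without SG3 the log2 fold change was 0.29. The ratio of H19 to Igf2 CPM was 0.648, 0.647 and 0.946 in SG1, SG2 and SG3, against 0.670, 0.623 and 0.837 in WT3, WT9 and WT11. SG3 and WT11 were the high lines in that ratio, 1 of each genotype. Igf2r, the maternally expressed receptor that clears IGF2 into lysosomes, had 536, 464 and 430 CPM in SG1, SG2 and SG3, against 420, 456 and 393 CPM in WT3, WT9 and WT11. SG3 fell within the WT range (log2 fold change 0.17, SE 0.09, adjusted p = 0.403), and Airn, the antisense RNA that silences the paternal Igf2r allele, had 0.11 (adjusted p = 0.777).

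Within 1 Mb of Igf2, 2 of the 22 tested genes that are not among the 39 passed, both lower in SG lines and so opposite in direction to Igf2 and H19. They were Syt8, a synaptotagmin gene (log2 fold change -2.23, SE 0.40, adjusted p = 0.0383), and Lsp1, which encodes an actin-binding protein of leukocytes (log2 fold change -0.64, SE 0.09, adjusted p = 0.0180). Igf2os, another of the 22, overlaps Igf2 on the opposite strand. It was higher in SG lines, like Igf2, and just missed the threshold (log2 fold change 0.45, SE 0.09, adjusted p = 0.0517). The median over the 22 was -0.09. Around Grb10 0 of 6 such genes passed, and around Peg3 0 of 17. Over all tested genes 1.90% passed in either direction.

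At the Dlk1-Dio3 locus, lines differed most in Dlk1. Dlk1, which encodes a membrane protein of the Notch ligand family that keeps precursor cells from differentiating, is expressed from the paternal allele. It had 44.0, 80.9 and 119.7 CPM in SG1, SG2 and SG3, against 38.9, 30.5 and 32.9 CPM in WT3, WT9 and WT11. SG1 stood close to WT3 while SG3 was the highest line, 3.93 times the lowest, which was the largest such ratio among the 38 genes. The mean log2 fold change was 1.26 (SE 0.31) but did not pass (adjusted p = 0.0936), and without SG3 it was 0.88. Without SG1 it was 1.56 and passed (adjusted p = 0.00499).

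Meg3, Rian and Mirg are noncoding RNAs of the maternal allele of that locus, transcribed one after another in the same direction. Meg3 had 220.0, 177 and 193 CPM in SG1, SG2 and SG3, against 174, 149.5 and 100.1 CPM in WT3, WT9 and WT11, with SG2 and WT3 nearly level and no overlap (log2 fold change 0.48, SE 0.18, adjusted p = 0.262). Rian, which hosts small nucleolar RNAs, had 348, 334 and 399 CPM in SG1, SG2 and SG3, against 311, 301 and 256 CPM in WT3, WT9 and WT11, also without overlap (log2 fold change 0.32, SE 0.09, adjusted p = 0.132). Mirg, the host of miR-134 and miR-410 shown above, had 11.5, 9.20 and 10.8 CPM in SG1, SG2 and SG3, against 8.52, 7.98 and 5.61 CPM in WT3, WT9 and WT11 (log2 fold change 0.51, SE 0.16, adjusted p = 0.175). In these 3 RNAs WT11 was the lowest line. The ratio of Mirg to Meg3 CPM stayed between 0.0490 and 0.0561 over all 6 lines, while the ratio of Meg3 to Dlk1 CPM was 4.998, 2.18 and 1.61 in SG1, SG2 and SG3, against 4.48, 4.91 and 3.04 in WT3, WT9 and WT11. The ratio of Rian to Meg3 CPM ran from 1.58 to 2.56 over the lines. The noncoding RNAs thus varied less against each other across lines than against Dlk1.

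The other paternal genes of the locus were low. Rtl1, a retrotransposon-derived gene needed for placental capillaries, had 1.07, 1.43 and 1.20 CPM in SG1, SG2 and SG3, against 0.700, 0.948 and 0.766 CPM in WT3, WT9 and WT11. The lines did not overlap (log2 fold change 0.61, SE 0.20, adjusted p = 0.197), and 8.40% of its exon bases are shared with microRNA genes, most of them on the opposite strand. Dio3, which encodes an enzyme that inactivates thyroid hormone, had 2.30, 2.35 and 1.49 CPM in SG1, SG2 and SG3, against 1.14, 1.87 and 1.67 CPM in WT3, WT9 and WT11, with overlap (log2 fold change 0.39, SE 0.25, adjusted p = 0.520). All 6 genes of the locus had a mean above WT in SG lines, 5 of them without overlap and 0 past the threshold. Over all tested genes, 10.0% had every SG line above every WT line. Of the 14 tested genes within 1 Mb of Dlk1 that are not among the 39, 0 passed, against 1.90% of all tested genes. Their median log2 fold change was 0.00. They include Gm24564, Gm26945 and DQ267102 (0.65, 0.58 and 0.46), whose centres lie within the span of Rian and so inside the cluster.

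**Figure D5:**
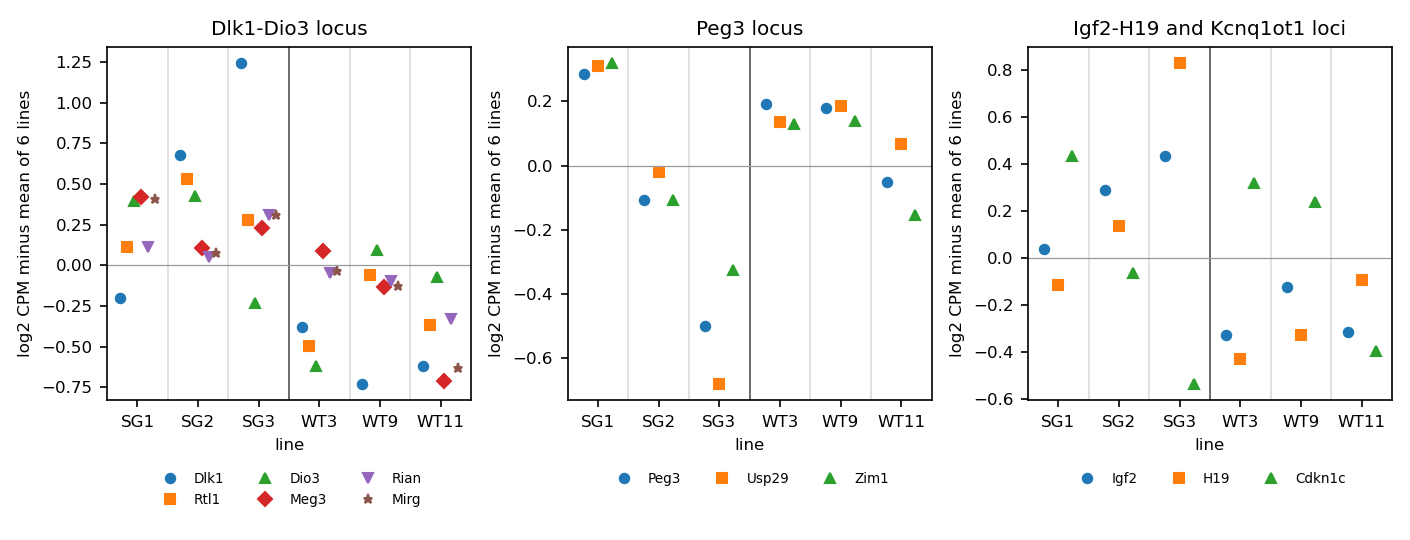
Log2 CPM minus the mean of the 6 lines for the genes of the Dlk1-Dio3 locus (left), the Peg3 locus (middle) and the Igf2-H19 and Kcnq1ot1 loci (right), by line, with SG lines left of WT lines and a symbol per gene. Meg3 and Mirg lie close together in every line, Dlk1 stands apart from them in all lines but WT11, and Peg3, Usp29 and Zim1 are all highest in SG1 and lowest in SG3.

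Genes of the Peg3 locus varied widely among the SG lines, and none passed the threshold between genotypes. Peg3, a paternally expressed zinc-finger protein, had 302, 229 and 175 CPM in SG1, SG2 and SG3, against 282, 280 and 239 CPM in WT3, WT9 and WT11. The SG lines spanned both ends of the range (log2 fold change -0.18, SE 0.17, adjusted p = 0.680), and without SG3 the log2 fold change was -0.01. Usp29, which shares the promoter shown above, had 4.77, 3.79 and 2.40 CPM in SG1, SG2 and SG3, against 4.22, 4.37 and 4.03 CPM in WT3, WT9 and WT11 (log2 fold change -0.21, SE 0.22, adjusted p = 0.722). Zim1, a zinc-finger gene expressed from the maternal allele, had 9.26, 6.88 and 5.92 CPM in SG1, SG2 and SG3, against 8.12, 8.16 and 6.66 CPM in WT3, WT9 and WT11 (log2 fold change -0.06, SE 0.17, adjusted p = 0.909). All 3 genes were highest in SG1 and lowest in SG3. The ratio of Peg3 to Usp29 CPM lay between 59.2 and 73.0 in all lines.

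Cdkn1c, which encodes the cell cycle inhibitor p57 and is expressed from the maternal allele, had 150.3, 106 and 76.8 CPM in SG1, SG2 and SG3, against 139, 131 and 84.6 CPM in WT3, WT9 and WT11. Its SG lines again held both the highest and the lowest value (log2 fold change -0.09, SE 0.26, adjusted p = 0.908), and 30.7% of its exon bases are shared with a predicted gene on the other strand. Its neighbour Phlda2, which limits growth of the placenta, had a log2 fold change of 0.27 (adjusted p = 0.679). Kcnq1ot1, the paternal noncoding RNA that silences that cluster, had 5.24, 3.87 and 4.01 CPM in SG1, SG2 and SG3, against 3.52, 3.41 and 2.71 CPM in WT3, WT9 and WT11. The lines did not overlap and the difference did not pass (log2 fold change 0.44, SE 0.16, adjusted p = 0.240).

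Grb10, an adaptor protein that restrains insulin and IGF receptor signalling and is maternally expressed outside the brain, had 806, 961 and 1060 CPM in SG1, SG2 and SG3, against 736, 766 and 724 CPM in WT3, WT9 and WT11. The WT lines lay close together and all SG lines were above them (log2 fold change 0.35, SE 0.09, adjusted p = 0.107). Without SG1 it passed (adjusted p = 0.00795).

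In 5 genes every SG line was below every WT line, and none of them passed the threshold. Plagl1, a paternally expressed zinc-finger factor that slows cell growth, had 55.0, 52.1 and 51.7 CPM in SG1, SG2 and SG3, against 75.0, 60.3 and 67.5 CPM in WT3, WT9 and WT11 (log2 fold change -0.35, SE 0.08, adjusted p = 0.0627). Mest, a paternally expressed gene of the hydrolase fold family, had 64.6, 51.7 and 59.8 CPM in SG1, SG2 and SG3, against 73.1, 72.7 and 76.3 CPM in WT3, WT9 and WT11 (log2 fold change -0.34, SE 0.08, adjusted p = 0.0745). Of the exon bases of Mest, 23.1% are shared with Copg2 on the other strand, which had 34.5 CPM in SG lines and 34.9 CPM in WT lines. Ndn, which encodes necdin, a growth-restraining MAGE protein, had 45.3, 48.9 and 46.3 CPM in SG1, SG2 and SG3, against 51.7, 65.5 and 63.5 CPM in WT3, WT9 and WT11 (log2 fold change -0.36, SE 0.09, adjusted p = 0.0818). The gaps between the nearest SG and WT lines were narrow in Plagl1 and Ndn. Nap1l5, a paternally expressed retrogene inside an intron of Herc3, had 0.471, 0.454 and 0.770 CPM in SG1, SG2 and SG3, against 1.18, 0.917 and 0.949 CPM in WT3, WT9 and WT11 (log2 fold change -0.84, SE 0.26, adjusted p = 0.167). Its host Herc3, a gene of the HECT ubiquitin ligase family, had 32.1 CPM in SG lines and 45.8 CPM in WT lines (log2 fold change -0.51, adjusted p = 0.0684). Commd1, which encodes a copper transport and trafficking protein, differed by little but evenly, with 28.0, 27.7 and 28.5 CPM in SG1, SG2 and SG3, against 30.4, 30.3 and 30.5 CPM in WT3, WT9 and WT11 (log2 fold change -0.11, SE 0.04, adjusted p = 0.183).

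The remaining genes overlapped between genotypes. In the Ndn-Snrpn region, homologous to the human Prader-Willi and Angelman region, Magel2 was low (0.120 to 0.3604 CPM in SG lines, 0.350 to 0.459 CPM in WT lines; log2 fold change -0.70, adjusted p = 0.455), and Mkrn3 and Peg12 had log2 fold changes of 0.10 and -0.15. Snrpn, which encodes a splicing protein, had -0.01 and Ube3a, a ubiquitin ligase whose imprinting is limited to neurons, had 0.06 (SE 0.04, adjusted p = 0.583), and 34.1% and 27.3% of their exon bases are shared with other genes. Gnas, which encodes the G protein alpha subunit Gs among other products, was the most even of the 38, with a highest line only 1.09 times the lowest (log2 fold change 0.03, SE 0.04, adjusted p = 0.781). Nnat, a small membrane protein of the nervous system, was lowest in WT11 (log2 fold change 0.24, SE 0.19, adjusted p = 0.609). Zrsr1, a splicing factor retrogene inside Commd1, had -0.11, and the noncoding RNA Peg13 had -0.09. The trafficking gene Trappc9, in which Peg13 lies, had 0.07 (SE 0.07, adjusted p = 0.699). Impact, a regulator of the GCN2 kinase, had 108, 105 and 165 CPM in SG1, SG2 and SG3, against 185, 114 and 157 CPM in WT3, WT9 and WT11. SG1, SG2 and WT9 were low and SG3, WT3 and WT11 high, a division that did not follow genotype (log2 fold change -0.27, SE 0.22, adjusted p = 0.616).

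Genes were also grouped by the parental origin listed for each, which was not measured in these fibroblasts since the counts do not separate alleles. Of the 15 tested genes listed as maternally expressed, 12 had a mean above WT in SG lines and 3 below (median log2 fold change 0.20). The 12 include Ube3a (0.06), whose imprinting is limited to neurons. Of 23 genes listed as paternally expressed, 11 were above and 12 below (median -0.01). Over all tested genes 50.7% were above. Genes of a cluster share their surroundings, so these counts are a description, and 1 gene of each kind passed. Over the 38 genes the highest line was 1.52 times the lowest at the median, and 10 genes were over 2. SG1 was the highest line for 12 genes and WT11 the lowest for 11, and SG3 was the highest for 8 and the lowest for 10.

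None of the tested genes that set or read the imprint passed the threshold, which 1.90% of all tested genes did. At that share, a list of this size would often hold 0. Of 38 control factors (DNA methyltransferases and demethylases, KRAB zinc-finger proteins and their partners, CTCF, cohesin and Polycomb), 35 were tested and 0 passed in edgeR's quasi-likelihood test or DESeq2. In edgeR's test 3 of the 35 had an unadjusted p under 0.05, against 15.5% of all tested genes. The median log2 fold change of the 35 was 0.00. The smallest p-values belonged to Zfp568, a zinc-finger repressor of a placental Igf2 promoter in the mouse, with 57.4 CPM in SG lines and 50.4 CPM in WT lines (log2 fold change 0.19, adjusted p = 0.179), and to Cbx1, a heterochromatin protein, with 114 CPM in SG lines and 107 CPM in WT lines (log2 fold change 0.09, adjusted p = 0.303). Of 50 other imprinted genes and their neighbours, 35 were tested and 0 passed in edgeR's test against 2 in DESeq2 (Atp10a and Herc3). In edgeR's test 6 of these 35 had an unadjusted p under 0.05, again against 15.5% of all tested genes. Their median log2 fold change was -0.02. Beside Herc3, the smallest p-value there was that of Gpr1, a receptor gene, with 0.441 CPM in SG lines and 0.750 CPM in WT lines (log2 fold change -0.76, adjusted p = 0.142).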

How the data were processed

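The authors deposited raw read counts per gene for 6 libraries (3 SG and 3 WT lines, grouped by sample title). The tools and build named in the submitters' processing notes are Trimmomatic 0.36, STAR 2.5.2b, GRCm38, featureCounts (Subread 1.5.2) and DESeq2. The sources used here give neither strand setting nor multimapping rule, and counts of the 17 of 39 genes that share exon bases with another gene are uncertain. Of 49315 identifiers, 49056 had a GENCODE M21 symbol, and coordinates are those of the files.

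Counts were filtered with filterByExpr (minimum count 10), leaving 16068 genes, scaled by TMM and tested, SG against WT, 2-sided and with no covariate, by the quasi-likelihood test of edgeR 4.0.16 (R 4.3.3), with Benjamini-Hochberg adjustment over all 16068 genes and a threshold of 0.05. The fit is the package's default. The plan had written edgeR's newer fit as the main and the default as the alternative, and these were exchanged after the first results were seen, to match an earlier analysis of the same files. The newer fit called 338 genes against 306, with the same 2 imprinted genes. SE is the log2 fold change over the square root of F. TPM used the deposited exon lengths. Alternatives were RLE and library-total scaling, no filter or 1 CPM in 3 libraries, DESeq2 1.42.0, voom in limma 3.58.1, a robust prior, the newer fit, Xist as a covariate, and leaving out lines.

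The members and lists were chosen with earlier results of these data known. Named with full statistics were members past the threshold, with an unadjusted p under 0.05, with no overlap, or of highest CPM in their locus, and in other lists members past the threshold or, with none, the 2 of smallest p (cell markers are given as sums). Members that the rule leaves out are given by log2 fold change, and neighbours of Asb4 and Slc38a4 were named after their values were seen. Counts of 15837 genes for SG against WT were simulated from the means and dispersions of the data. Of 67 genes with a 1.5-fold change 74.6% were recovered, of 67 with 2-fold 98.5% and of 66 with 4-fold 100%. Of 192 calls 5.21% were false. No change under 1.5-fold was simulated, so recovery of changes as small as that of Slc38a4 (1.29-fold) was not measured. Promoters and microRNAs are RefSeq's (GRCm38.p6).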

Additional observations from a re-analysis of the deposited data

How the results depend on the processing

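Calls rested on single lines. Leaving out 1 line at a time, genes higher in SG numbered 2 to 234 over all genes (130 with all lines) and genes lower 1 to 345 (176 with all lines), the fewest without SG2 and the most without SG1. Imprinted genes past the threshold numbered 0 to 4 upward and 0 to 1 downward, and other imprinted genes and neighbours 0 to 4. With SG2, SG3 or WT11 left out, 0 imprinted genes passed, and without WT3 only Ndn did, downward. With an arm of 2 lines, spread is estimated from 5 lines in all. Without a count filter, 421 genes were higher and 538 lower, with 9 imprinted genes up (Asb4, Slc38a4, Dlk1, Grb10, H19, Igf2, Mirg, Peg10, Rian) and 3 down (Mest, Ndn, Plagl1), and 2 other imprinted genes passed. DESeq2 gave 430 higher and 518 lower, 8 imprinted genes up (the same without H19), the same 3 down, and 2 others. Without both lines with Xist, 315 were higher and 388 lower, with 5 imprinted genes up (Asb4, Dlk1, Grb10, Igf2, Slc38a4), 2 down (Mest, Plagl1) and 4 others (Atp10a, Herc3, Tfpi2, Zdbf2). The cause was not tested. Under the other scalings, the 1 CPM filter, voom, the robust prior and the newer fit, Asb4 and Slc38a4 were the only imprinted genes of the 39 that passed, and Xist as a covariate added Dlk1. Asb4 passed in 12 of 16 alternatives and Slc38a4 in 11, with log2 fold changes of 0.96 to 1.34 and 0.30 to 0.43. Control factors stayed at 0 in every alternative. Of 605 values of single members, 9 turned sign, none of them called. Mkrn3 turned to -0.12 without both lines with Xist, and over the fits that leave out 1 line the log2 fold change ran from -0.085 to 0.20 in Mkrn3, -0.37 to 0.12 in Cdkn1c, -0.44 to 0.022 in Usp29, -0.26 to 0.076 in Zim1 and -0.074 to 0.043 in Snrpn, with SG1 or SG3 at the end of each range except that of Snrpn (WT9 and WT3). No paired analysis was possible because the groups share only the line number 3. Depth limits Calcr, Magel2, Nap1l5 and Rtl1, which are among the members with the fewest counts.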
